A study of Mus musculus with 9 samples.

Results

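Ccr4, a chemokine receptor, and Ccl17 and Ccl22, the chemokines that bind it, were followed on 9 arrays of mouse dendritic cells, comprising wild-type cells before and after LPS and JmjD2d-knockdown cells after LPS. Each of the 3 genes was named alone by 1 probe set, and no probe set named any of them together with another gene. The probe sets were to be chosen by their mean over the 9 arrays, the highest for each gene, and so there was nothing to choose between. They were 3 of the 19938 genes measured in this way. Ccr4 was already known, from earlier results of these data, as 1 of the genes with the largest falls in knockdown cells, so its difference between knockdown and wild-type cells is a description and carries no test. Ccl17 and Ccl22 were also chosen with earlier results of these data known. Their values in that comparison, with any p-value or rank, are descriptions too.

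The cells in all groups were dendritic cells grown over 8 days from bone marrow progenitors first held with the cytokines IL-3, IL-6 and SCF, each at 20 ng/ml. GM-CSF, as a 4% culture supernatant, was given with SCF at 5 ng/ml for 4 days and then without it for 4 days. Unstimulated wild-type cells, wild-type cells given LPS (bacterial lipopolysaccharide) at 100 ng/ml for 4 h, and knockdown cells given the same LPS were each measured on 3 arrays. Knockdown cells had been infected with a pSir-delta U6CHisD retrovirus carrying a hairpin against the coding sequence of JmjD2d, the histone demethylase encoded by Kdm4d, with selection in histidinol at 2 mM, and wild-type cells had no virus. Neither a control hairpin nor unstimulated knockdown cells were analysed here, so infection and selection cannot be told apart from the hairpin's action on its target. The mouse strain and age were not given in the sources used here.

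CCR4 is a G protein-coupled receptor best known from T helper 2 cells, regulatory T cells and skin-homing memory T cells, which migrate towards its ligands. CCL17 and CCL22 are CC chemokines made in quantity by dendritic cells, and GM-CSF and IL-4 are known to raise Ccl17 through STAT factors and the transcription factor IRF4. The genes of both ligands lie side by side on mouse chromosome 8 with that of the chemokine Cx3cl1 between them, and Ccr4 lies on chromosome 9.

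The promoter sequences are shown because the genes of both ligands are close neighbours and because all 3 genes were highest in the same group of arrays. Each run covers the 250 bases upstream of a RefSeq transcript start in build GRCm38.p6, on the strand of the gene. The windows were chr9:114496545-114496794 on the minus strand for Ccr4, chr8:94810203-94810452 on the plus strand for Ccl17, and chr8:94745434-94745683 on the plus strand for Ccl22. The starts of Ccl22 and Ccl17 were 64769 bases apart. Capitals mark every match to a searched motif.
Ccr4: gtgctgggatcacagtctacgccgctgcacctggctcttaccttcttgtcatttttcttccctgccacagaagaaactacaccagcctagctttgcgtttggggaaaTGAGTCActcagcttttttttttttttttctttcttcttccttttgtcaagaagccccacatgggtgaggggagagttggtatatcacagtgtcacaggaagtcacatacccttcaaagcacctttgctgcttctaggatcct
Ccl17: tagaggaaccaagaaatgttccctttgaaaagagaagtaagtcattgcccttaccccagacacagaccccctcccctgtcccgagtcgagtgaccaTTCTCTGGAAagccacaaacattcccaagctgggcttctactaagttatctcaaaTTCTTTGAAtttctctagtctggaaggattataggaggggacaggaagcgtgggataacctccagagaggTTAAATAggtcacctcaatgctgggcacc
Ccl22: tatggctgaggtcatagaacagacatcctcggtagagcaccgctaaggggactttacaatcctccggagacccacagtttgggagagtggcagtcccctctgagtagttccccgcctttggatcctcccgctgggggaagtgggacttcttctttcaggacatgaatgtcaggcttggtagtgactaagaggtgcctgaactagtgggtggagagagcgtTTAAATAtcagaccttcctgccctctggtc

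The motifs were searched on both strands. The STAT pattern TTCNNNGAA and the STAT pattern with a spacer of 4 bases each matched once in the Ccl17 window, as TTCTTTGAA from base -99 to -91 and as TTCTCTGGAA from -154 to -145, counted from the transcript start. Of 32851 promoter windows of the same length, 7.02% and 5.85% held these patterns. The AP-1 pattern TGANTCA matched once, in the Ccr4 window from -143 to -137, and was held by 6.75% of windows. The NF-kB consensus, found in 7.25% of windows, the composite site of ETS factors with IRF factors, found in 2.3%, and the TATA pattern TATAAA, found in 12.4%, had no match in any of these 3 windows. A word picked after the sequences had been read, TTAAATA, stood at -29 to -23 in Ccl17 and at -30 to -24 in Ccl22, and was held by 4.18% of windows. None of the matches overlapped another.

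All values are log2 RMA values, and every difference is a log2 difference between group means from 1 limma model of the 9 arrays. A gene is called changed where its p-value, adjusted over the 19938 genes by the Benjamini-Hochberg method, was under 0.05. Limma called 10.9% of all genes after LPS in wild-type cells and 0.762% between knockdown and wild-type LPS cells. Between LPS-treated knockdown and unstimulated wild-type cells it called 10.9%. These shares are the background for every count, in a list below, of genes called by that model. Counts from the paired fit, which is described further below, have a background of their own that is given there. The share of all genes at an unadjusted p under 0.05 was not computed. List counts at that limit therefore have no background here and are descriptions. The correlation across genes between arrays of 1 group was 0.985 to 0.997, and genes are not independent replicates. Kdm4d, the target of the hairpin, read 7.79, 7.54 and 7.74 in wild-type and 7.43, 7.11 and 7.4 in knockdown cells, both after LPS. That difference of -0.37 (SE 0.13, n = 3 against 3) did not pass the adjusted limma test (adjusted p = 0.278). It ranked 882 from the lowest among the 19938 genes. The knockdown values of Kdm4d lay wholly below the wild-type LPS values, as did those of 8.38% of all genes.

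The dendritic cell label was checked against markers. Of 16 measured dendritic cell markers, 12 lay above the median gene, led by the class II invariant chain Cd74 at a mean of 13.41, and the cross-presenting dendritic cell marker Xcr1 was the dimmest at 6.26. Macrophage markers were also bright, with 10 of 12 above the median gene and Cd68 at 13.58. T cells, the best-known bearers of CCR4, were represented by 14 measured markers, of which 2 lay above the median gene. The brightest of them was Cd28, a costimulatory receptor, at 10.74, and the dimmest was Cd3g, a subunit of the T cell receptor complex, at 5.6. In bulk RNA, fewer cells of a type and less RNA per cell cannot be told apart.

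**Figure D1:**
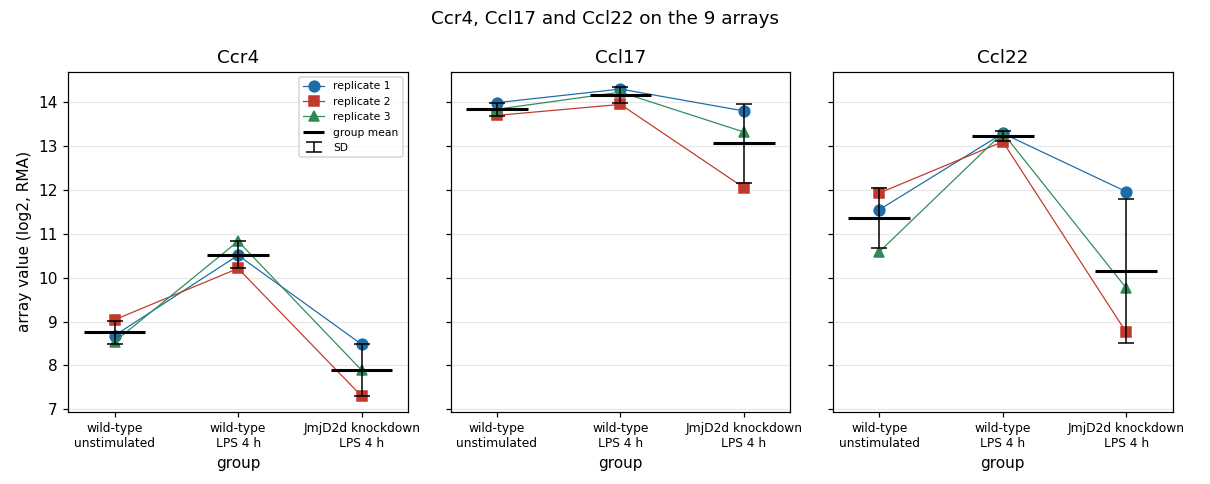
Array values (log2, RMA) of Ccr4, Ccl17 and Ccl22 on the vertical axes, by group on the horizontal axes, with coloured lines joining arrays of the same replicate number, black bars for group means and error bars for the SD (n = 3). All 3 genes have their highest mean in LPS-treated wild-type cells, and among the knockdown arrays replicate 1 is the highest and replicate 2 the lowest for each of them.

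Ccr4, the receptor, was higher in wild-type cells after LPS than in either of the other groups. It read 8.68, 9.04 and 8.54 in unstimulated wild-type cells (mean 8.75, SD 0.26, n = 3), for replicates 1 to 3. After LPS the wild-type arrays read 10.51, 10.21 and 10.83 (mean 10.52, SD 0.31). All 3 LPS values lay above all 3 unstimulated values. Ccr4 rose 3.4-fold (log2 difference 1.77, SE 0.29, 95% confidence interval 1.1 to 2.43, limma adjusted p = 0.008). With any 1 of the 9 arrays left out its adjusted p was 0.00403 to 0.0396. Of all genes, 10.9% were called in this comparison, and 12.8% had LPS values wholly above the unstimulated ones. The wild-type LPS arrays also enter the knockdown comparison in which Ccr4 had stood out.

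In LPS-treated knockdown cells Ccr4 read 8.48, 7.3 and 7.89 (mean 7.89, SD 0.59, n = 3). Every knockdown value was below every wild-type LPS value, and also below every unstimulated wild-type value. Against wild-type LPS arrays the difference was -2.63 (SE 0.29, 95% confidence interval -3.29 to -1.97), a 6.18-fold lower mean and the eighth lowest difference among all genes. Because Ccr4 was chosen with this fall known, the interval and the rank are descriptions and do not stand for a test. By replicate number the differences were -2.04, -2.91 and -2.94. Relative to unstimulated wild-type cells it was -0.86 (SE 0.29, 95% confidence interval -1.53 to -0.2), which did not pass the adjusted limma test (adjusted p = 0.105). Leaving out knockdown replicate 1 gave -1.16 for that difference and an adjusted p of 0.0344, and leaving out knockdown replicate 2 gave -0.57 and 0.217. Of all genes, 10.9% were called between LPS-treated knockdown and unstimulated wild-type cells, and 15.0% had knockdown values wholly below the unstimulated ones.

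Ccl22, the ligand known for its strong action on CCR4, had the lowest difference between knockdown and wild-type LPS cells of the 3 genes. It read 11.55, 11.93 and 10.59 in unstimulated wild-type cells (mean 11.36, SD 0.69, n = 3). Wild-type cells after LPS read 13.29, 13.1 and 13.3 (mean 13.23, SD 0.11), all above the unstimulated arrays. The difference was 1.88 (SE 0.71, 95% confidence interval 0.24 to 3.51), or 3.67-fold, and did not pass the adjusted limma test (adjusted p = 0.139). The model shares 1 spread per gene among the groups, and the knockdown arrays of Ccl22 varied most. With only the wild-type groups in the fit the standard error was 0.33 and the adjusted p 0.0245, and without knockdown replicate 1 the adjusted p was 0.0255.

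Knockdown cells after LPS read 11.96, 8.75 and 9.76 for Ccl22 (mean 10.16, SD 1.64, n = 3). All 3 lay below the wild-type LPS arrays, but they spanned 3.2 log2 units, so that replicate 1 stood above all unstimulated wild-type arrays and replicates 2 and 3 below them. The difference from wild-type LPS cells was -3.08 (SE 0.71, 95% confidence interval -4.71 to -1.44), an 8.43-fold lower mean. It was the lowest difference of all 19938 genes, and yet did not pass the adjusted limma test (adjusted p = 0.103). Ccl22 was chosen with earlier results of these data known, so this rank and the p-values for this difference are descriptions. By replicate number the difference was -1.33, -4.35 and -3.55. Without knockdown replicate 1 it was -3.98 (adjusted p = 0.0167), and without knockdown replicate 2 it was -2.38 (adjusted p = 0.201).

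Against unstimulated wild-type cells, Ccl22 in LPS-treated knockdown cells differed by -1.2 (SE 0.71, 95% confidence interval -2.84 to 0.44, limma adjusted p = 0.399). The differences by replicate number were 0.41, -3.18 and -0.83, and thus of both signs. Without knockdown replicate 1 the value was -2.1 (adjusted p = 0.0267), without knockdown replicate 2 it was -0.5 (adjusted p = 0.743), and without all 3 arrays numbered 2 it was -0.21. The position of Ccl22 in knockdown cells relative to unstimulated wild-type cells therefore depended on the array.

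Ccl17, the other ligand, lay near the top of the scale in every group. Unstimulated wild-type cells read 13.99, 13.7 and 13.84 (mean 13.84, SD 0.15, n = 3), and wild-type cells after LPS read 14.3, 13.95 and 14.23 (mean 14.16, SD 0.18). The highest value of any probe set on any array was 14.66, and whether this ceiling compressed the differences of Ccl17 was not tested. The groups overlapped, and the LPS difference of 0.32 (SE 0.38, 95% confidence interval -0.55 to 1.18) did not pass the adjusted limma test (adjusted p = 0.609). By replicate number it was 0.31, 0.26 and 0.39, higher after LPS in 3 of 3 pairs.

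Knockdown cells after LPS read 13.8, 12.05 and 13.32 for Ccl17 (mean 13.06, SD 0.9, n = 3), each below all wild-type LPS values. The difference was -1.1 (SE 0.38, 95% confidence interval -1.96 to -0.24), a 2.14-fold lower mean, and did not pass the adjusted limma test (adjusted p = 0.256). Without knockdown replicate 2 the difference was -0.6. Set against unstimulated wild-type cells it was -0.78 (SE 0.38, adjusted p = 0.27), or -0.28 without knockdown replicate 2, and replicate 1 of the knockdown cells lay within the range of the unstimulated arrays.

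**Figure D2:**
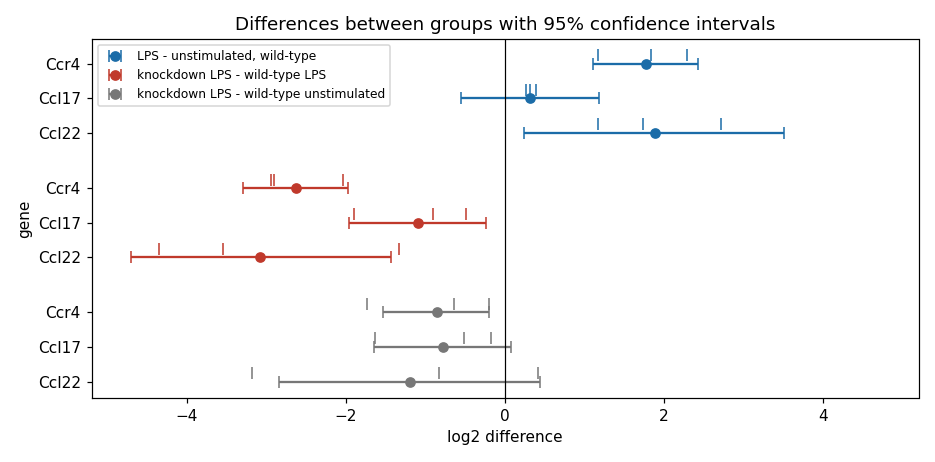
Log2 differences (horizontal axis) of Ccr4, Ccl17 and Ccl22 (vertical axis) in the 3 comparisons, with dots for the limma estimate, bars for its 95% confidence interval and ticks above each bar for the differences between arrays of the same replicate number. The ticks of Ccl22 between knockdown and wild-type LPS cells run from -4.35 to -1.33, and those of Ccl17 in wild-type cells from 0.26 to 0.39.

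Set side by side after LPS, the knockdown values of all 3 genes were below every wild-type value, as were those of 8.38% of all genes. Neither ligand was called by limma between knockdown and wild-type LPS cells, where 0.762% of genes were, 80 higher and 72 lower. That count depended on single arrays, with 11 higher and 7 lower without wild-type LPS replicate 3 and 257 and 126 without wild-type LPS replicate 2. Both ligands had an unadjusted limma p under 0.05, at 0.0186 for Ccl17 and 0.00238 for Ccl22. Both were chosen with earlier results of these data known, so these p-values, like the adjusted ones, are descriptions. A fit that also holds the replicate number as a block, the paired fit, called neither (adjusted p = 0.0995 and 0.066). Over all 19938 genes the paired fit called 1035 higher and 1908 lower after LPS in wild-type cells. Between knockdown and wild-type LPS cells it called 301 higher and 247 lower. Between LPS-treated knockdown and unstimulated wild-type cells it called 1121 higher and 1725 lower. These totals are the background for list counts from the paired fit. The interval of Ccr4 overlapped that of Ccl22 and ended just below that of Ccl17, at -1.97 against -1.96. These intervals are descriptions too. Whether the genes differed from each other in their fall was not tested.

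The order of the arrays within the knockdown group was shared by all 3 genes, with replicate 1 highest and replicate 2 lowest. The share of all genes with this order was not computed, so it cannot be called a trait of these 3 genes. Kdm4d itself was lowest in knockdown replicate 2, at 7.11 against 7.43 and 7.4. Ccr7, through which mature dendritic cells find lymph nodes, read 9.75, 7.71 and 7.74 in the same arrays. Irf4, a transcription factor of dendritic cells, read 8.82, 7.06 and 7.11. A low replicate 2 was not particular to knockdown cells. In wild-type LPS arrays it was also lowest for Ccr4 (10.21), Ccl17 (13.95), Ccl22 (13.1), Kdm4d (7.54), Ccr7 (11.01) and Irf4 (9.25). In unstimulated arrays it was lowest for Ccl17 and Irf4 but highest for Ccr4, Ccl22 and Kdm4d. Whether the Kdm4d level bears on this order was not tested.

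Over the 9 arrays, Ccr4 and Ccl22 had a Pearson correlation of 0.939, Ccl17 and Ccl22 of 0.865, and Ccr4 and Ccl17 of 0.789. These are descriptions over arrays that fall into 3 groups. Likeness was ranked over the named genes with an SD of at least 0.5 over the arrays, 1392 genes for each of the 3. Ccl22 was the fifth most like Ccr4 and Ccr4 the second most like Ccl22, while Ccl17 stood at rank 50 for Ccr4 and rank 11 for Ccl22.

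S1pr3, a receptor for the lipid sphingosine 1-phosphate, had the highest correlation with both Ccr4 (0.951) and Ccl22 (0.953), and was among the 8 most like Ccl17 (0.898). It read 8.84, 8.94 and 8.43 in unstimulated wild-type cells, 9.86, 9.08 and 9.85 after LPS, and 8.54, 7.2 and 7.91 in knockdown cells after LPS. Its fall of -1.71 (SE 0.34) was not called. The other genes most like Ccr4 were Pla1a, a phospholipase (0.944), the kinase Alpk2 (0.941), the semaphorin Sema7a (0.94), the actin-associated protein Palld (0.931), the costimulatory ligand Cd86 (0.92) and Tubb1, a tubulin of platelets (0.919). These genes were picked on the same arrays, so their differences are a description. Among them, Pla1a, Sema7a, Palld and Cd86 were called both higher after LPS, by 1.95, 1.89, 0.78 and 1.28, and lower in knockdown cells, by -1.94, -1.99, -1.14 and -2.47.

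Ccl22 shared S1pr3, Alpk2 and Sema7a with Ccr4 among its most like genes, and was also close to Ccr7 (0.928), Insig1, a brake on sterol synthesis (0.921), Ust, a sulfotransferase (0.878), and the lysosomal channel Mcoln2 (0.874). For Ccl17 the most alike were Insig1 (0.951), the oxidoreductase Nqo1 (0.938), the transporter Slc41a2 (0.924), Serpinb9b, a protease inhibitor (0.913), the chemerin receptor Cmklr1 (0.911), Cd74 (0.907) and the serotonin transporter Slc6a4 (0.894). Limma called 0 of the 8 genes most like Ccl17 after LPS in wild-type cells, with 1 at an unadjusted p under 0.05, and 0 between knockdown and wild-type LPS cells, with 8. Slc41a2 (-1.53) and Cmklr1 (-1.31) were called lower in LPS-treated knockdown than in unstimulated wild-type cells. The 8 genes were picked on the same arrays for their likeness to Ccl17, so these counts and calls are a description.

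The chromosomal neighbours of the ligands differed among themselves. Cx3cl1, the membrane-bound chemokine whose gene lies between those of Ccl22 and Ccl17, read 8.24, 7.85 and 7.93 in unstimulated wild-type cells and 9.99, 9.2 and 9.88 after LPS. Knockdown cells after LPS read 8.55, 7.86 and 8.06. Cx3cl1 rose by 1.68 after LPS (SE 0.24, limma adjusted p = 0.00479) and was lower by -1.54 in knockdown than in wild-type LPS cells (SE 0.24, adjusted p = 0.0374). The groups did not overlap in either comparison, as was so for 12.8% of all genes (higher after LPS) and 8.38% (lower in knockdown cells). The knockdown call of Cx3cl1 was lost with only the groups compared in the fit (adjusted p = 0.107). It was also lost without any 1 of unstimulated replicates 1 and 3, wild-type LPS replicates 1 and 3 and knockdown replicates 2 and 3, with adjusted p-values from 0.0591 to 0.146.

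Ciapin1, an iron-sulfur cluster assembly factor on the far side of Ccl17, rose by 0.98 after LPS (SE 0.18, adjusted p = 0.0113) and differed by -0.45 in knockdown cells (adjusted p = 0.32). The next genes on that side were Coq9, Polr2c and Dok4, with knockdown differences from -0.17 to -0.05, of which Polr2c, an RNA polymerase II subunit, rose after LPS by 0.41. On the side of Ccl22, Pllp, Arl2bp, Rspry1 and Psme3ip1 had knockdown differences from -0.17 to 0.25 and limma called none of these 4 in any comparison. Around Ccr4, limma called 0 of the 8 nearest genes measured between knockdown and wild-type LPS cells, with 2 lower at an unadjusted p under 0.05. The lowest of them was Cmtm6, a stabiliser of the ligand PD-L1, at -0.64, with an adjusted p of 0.0655 that became 0.0298 in the paired fit, and the other 7 had differences from -0.22 to 0.12.

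**Figure D3:**
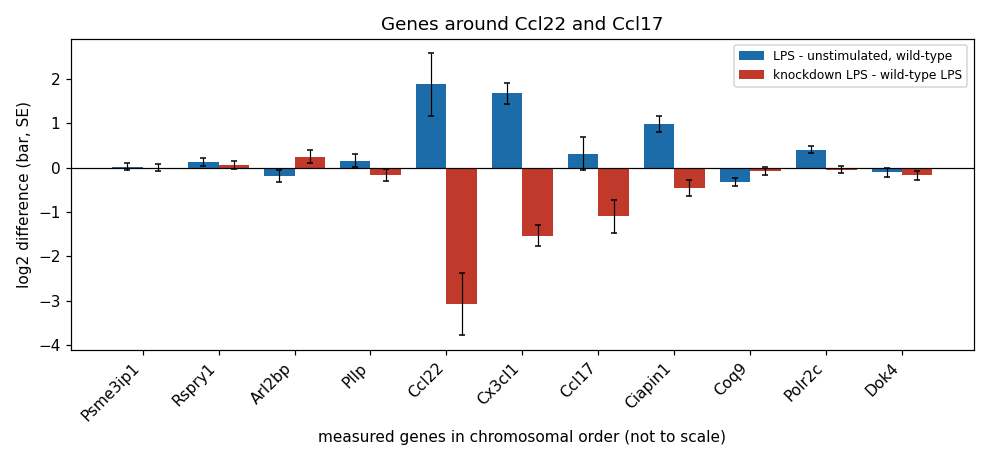
Log2 differences (vertical axis; bars with SE) of 11 measured genes in chromosomal order around Ccl22 and Ccl17 (horizontal axis, not to scale), for LPS in wild-type cells in blue and for knockdown against wild-type cells after LPS in red. Ccl22, Cx3cl1 and Ccl17 have the lowest knockdown differences, at -3.08, -1.54 and -1.1, and the next lowest is Ciapin1 at -0.45.

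Among 18 other measured ligands of the CC and CX3C families, 5 rose after LPS and limma called 0 lower, also at an unadjusted p under 0.05, with a median difference of 0.24 against 0.04 for all genes. The rises were those of Ccl4 (3.83), Ccl5 (3.16), Cx3cl1, Ccl1 (0.76) and Ccl3 (0.45), where Ccl1 is the ligand of CCR8. Of the 18, 2 had a larger LPS difference than Ccl22 and 8 a larger one than Ccl17. Between knockdown and wild-type LPS cells 1 of 18, Cx3cl1, was called, and the median was -0.12 against -0.03 for all genes. At an unadjusted p under 0.05, 4 of the 18 were lower and 0 higher. The lowest of those called by neither fit was Ccl7 (-1.06, SE 0.30, limma adjusted p = 0.164), close to Ccl17 at -1.1. The paired fit also called Ccl1 lower (-0.83, SE 0.18, with adjusted p-values of 0.0896 unpaired and 0.0343 paired).

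Ccl4 read 12.52, 12.5 and 12.7 in wild-type and 12.23, 12.46 and 12.68 in knockdown cells after LPS, so its values overlapped where those of Ccl22 did not. Ccl5 differed by -0.22 between these groups (SE 0.50). None of the 18 had a difference as low as that of Ccl22. Against unstimulated wild-type cells, Ccl4 (3.71), Ccl5 (2.93) and Ccl3 (0.53) were called higher in LPS-treated knockdown cells.

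Of 9 other measured receptors of these families, 2 rose after LPS, Cx3cr1 (1.26) and Ccr9 (0.47), and 2 fell, the monocyte receptor Ccr2 (-2.41) and Ccr1 (-1.14). None had a larger LPS difference than Ccr4, and the next was Ccr7 at 1.5 (SE 0.59, adjusted p = 0.154, which the paired fit puts at 0.0178). Between knockdown and wild-type LPS cells limma called 0 of the 9, with 4 lower at an unadjusted p under 0.05. Of these, Ccr7 alone was lower than Ccr4, at -2.81 (SE 0.59). Its adjusted p was 0.0815, or 0.0111 in the paired fit, and Cx3cr1, the receptor of Cx3cl1, was at -1.02 (adjusted p = 0.102). Ccr1 (-0.95) and Ccr2 (-3.17) were called lower in LPS-treated knockdown than in unstimulated wild-type cells.

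**Figure D4:**
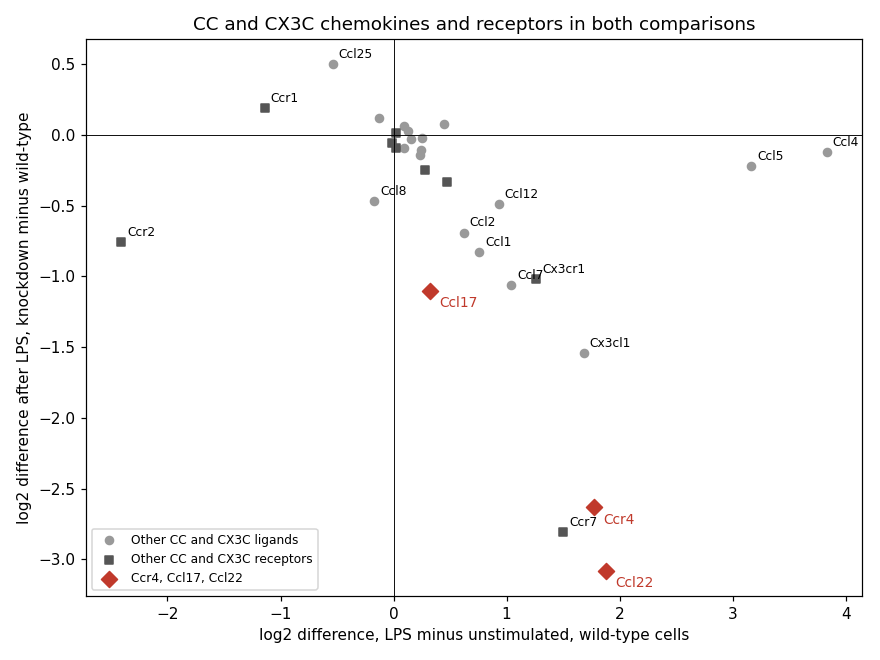
Log2 difference after LPS in wild-type cells (horizontal axis) against the log2 difference between knockdown and wild-type cells after LPS (vertical axis), for Ccr4, Ccl17 and Ccl22 as red diamonds, 18 other CC and CX3C ligands as circles and 9 receptors as squares. The axes share the wild-type LPS arrays; Ccr4, Ccr7 and Ccl22 lie lowest, at -2.63, -2.81 and -3.08, and Ccl4 and Ccl5 lie near 0 on the vertical axis.

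Known drivers of Ccl17 and Ccl22 transcription responded to LPS, with 5 of 11 measured members higher and 1 lower (median 0.48 against 0.04 for all genes). Over all 19938 genes 796 were called higher and 1368 lower. The NF-kB subunits Nfkb2 (1.65, SE 0.17), Relb (1.23, SE 0.14), Rel (1.11, SE 0.19) and Rela (0.48, SE 0.10) rose, as did Stat5a, a transducer of GM-CSF signals (1.23, SE 0.32), and Klf4 fell (-1.12, SE 0.29, adjusted p = 0.0423). The paired fit lost the call of Klf4 (adjusted p = 0.0603) and called 7 higher and 0 lower. Irf4 differed by -0.04 (SE 0.59) after LPS. Between knockdown and wild-type LPS cells limma called 0 of the 11, with 1 at an unadjusted p under 0.05. That gene was Irf4 (-2.34, SE 0.59, adjusted p = 0.124), which the paired fit called (adjusted p = 0.00601), and the next was Stat5a (-0.62, adjusted p = 0.462).

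Irf4 read 10.74, 9.31 and 10.08 in unstimulated wild-type cells, 10.86, 9.25 and 9.92 after LPS, and 8.82, 7.06 and 7.11 in knockdown cells after LPS. All 3 knockdown values lay below all 6 wild-type values, and replicate 2 was lowest in each group. Knockdown values lay wholly below the wild-type LPS ones in 8.38% of all genes and wholly below the unstimulated ones in 15.0%. The share below both was not computed. Irf4 was also called lower in these knockdown cells than in unstimulated wild-type cells (-2.38, SE 0.59, adjusted p = 0.0377), while Nfkb2 (1.51), Relb (1.04), Rel (0.82) and Rela (0.50) were called higher.

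Cytokines, receptors, kinases and brakes of GM-CSF, IL-4, IL-13 and TSLP signalling had 3 of 18 measured members higher after LPS, Socs3 (1.67), Jak2 (1.43) and Il13 (0.53), and 0 lower, also at an unadjusted p under 0.05 (limma, median 0.09). The paired fit called 5 higher. In knockdown cells after LPS 1 was lower, the signalling brake Socs2 (-1.31, SE 0.22, adjusted p = 0.0418), with a median of -0.32 against -0.03 for all genes. The paired fit added Il7r, a subunit of the TSLP receptor (-0.62, with adjusted p-values of 0.147 unpaired and 0.0232 paired). With unstimulated wild-type cells as the base, 2 were higher, Socs3 (1.46) and Jak2 (0.83), and 4 lower: Socs2 (-1.54), Il7r (-0.79), the IL-4 receptor chain Il4ra (-0.63) and Csf2rb2 (-0.45), a relative of the shared receptor chain of GM-CSF.

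Signalling and desensitisation genes act below chemokine receptors. Of 25 measured, Pik3r5, a regulator of PI3K-gamma, rose after LPS (0.90), and 4 fell: Rgs18 (-0.84), a brake on G proteins, Plcb2, a phospholipase C (-0.84), the arrestin Arrb1 (-0.83) and the receptor kinase Grk6 (-0.75). The paired fit called 3 higher and 6 lower. After LPS limma called 0 of 25 between knockdown and wild-type cells, and the paired fit called 0. Before adjustment 7 had a p under 0.05, of which 3 were higher and 4 lower. The smallest p-values were those of Rgs18 (-0.67, adjusted p = 0.0856) and Plcb2 (0.64, adjusted p = 0.274). Plcb3 (1.04) and Pik3r5 (0.63) were called higher in LPS-treated knockdown than in unstimulated wild-type cells, and Rgs18 (-1.51), Arrb1 (-1.04), Gng2 (-0.89) and Grk6 (-0.65) lower.

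Genes that remove or process chemokines had 8 measured members. Ccrl2, a non-signalling relative of the chemokine receptors, rose after LPS by 3.25 (SE 0.20). Adam17, a sheddase, rose by 0.66, and Adam10, another sheddase, which releases Cx3cl1, fell by 0.32. Between knockdown and wild-type LPS cells limma called 0 of the 8, with 0 at an unadjusted p under 0.05 and 0 in the paired fit, and the smallest p-values were those of Ackr4 (-0.13) and Adam10 (0.10). Ccrl2 (3.12) and Adam17 (0.53) were called higher in LPS-treated knockdown than in unstimulated wild-type cells.

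Mature migratory dendritic cell genes, a list that excludes Ccl17 and Ccl22, had 13 of 22 members higher after LPS, led by p-value by Il12b (6.27), Marcksl1 (2.24), Traf1 (2.75), Cd40 (4.25), Relb and Fscn1 (2.56). In knockdown cells after LPS 6 of 22 were lower: Cd86 (-2.47), Stat4 (-2.14), Cd80 (-0.76), Socs2, Pdcd1lg2 (-2.82) and Fscn1 (-1.89). The median was -0.86, and the paired fit called 10. Over all 19938 genes, 796 were called higher after LPS and 72 lower in knockdown than in wild-type LPS cells, with 247 lower there in the paired fit. Against unstimulated wild-type cells 843 of all genes were called higher and 1323 lower. The members and this list were chosen with such results known, so their shared direction is not independent evidence. Against unstimulated wild-type cells 8 were higher, such as Il12b (5.70), Marcksl1 (2.01), Traf1 (1.80) and Cd40 (2.56), and 4 were lower: Socs2, Pdcd1lg2 (-2.50), Cd86 (-1.19) and Stat4 (-1.28, adjusted p = 0.0381, or 0.052 and so not called in the paired fit).

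Markers of the cell types that such cultures could hold were measured on the same arrays. The mean log2 level of the 16 dendritic cell markers ran from 9.23 to 10.5 in unstimulated wild-type, 9.3 to 10.27 in LPS-treated wild-type and 8.46 to 9.41 in knockdown arrays. All 16 differences between knockdown and wild-type LPS cells were negative (median -0.76), with 0 called by limma, 7 at an unadjusted p under 0.05 and 5 called by the paired fit, such as H2-Ab1 (-2.14) and H2-Eb1 (-2.09). After LPS in wild-type cells their median difference was 0.0. Between LPS-treated knockdown and unstimulated wild-type cells 15 of the 16 were negative (median -1.06), with 1 called by limma, Irf8, and 11 by the paired fit. The 14 T cell markers ran from 7.13 to 7.19, 7.03 to 7.2 and 6.94 to 7.07 in the same order. Limma and the paired fit called 0 of these 14 between knockdown and wild-type LPS cells. The 1 marker at an unadjusted p under 0.05 was Cd28, at -1.22 (adjusted p = 0.179), and Cd28 was called lower by -2.30 against unstimulated wild-type cells (adjusted p = 0.00607).

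The 11 mast cell and basophil markers ran from 6.77 to 7.02, 7.14 to 7.52 and 6.43 to 6.86. After LPS in wild-type cells limma called 1 of the 11 higher and 0 lower. That gene was the histamine-making enzyme Hdc (3.23, SE 0.52, adjusted p = 0.00758), so its LPS response enters the mean of the list. Between knockdown and wild-type LPS cells Hdc was at -2.34 (adjusted p = 0.0902). Limma called 0 of the 11 in that comparison, with 5 at an unadjusted p under 0.05. The paired fit called 3 lower there, Cpa3 (-1.88, adjusted p = 0.0164), Gata2 (-0.87, 0.0306) and Slc6a4 (-1.47, 0.0301). Fcer1a, a chain of the IgE receptor, was the dimmest at 4.9. The 7 platelet and megakaryocyte markers ran from 8.7 to 9.0, 8.87 to 9.1 and 8.37 to 8.65. Limma called 1 of the 7 between knockdown and wild-type LPS cells, Ppbp (-2.27). Of these 7 differences 5 were negative and 2 positive (median -0.16). Neutrophil and precursor markers (11) ran from 7.93 to 9.46, 8.44 to 10.08 and 7.53 to 9.41. Limma called 0 of these 11 between knockdown and wild-type LPS cells, with 3 lower at an unadjusted p under 0.05. The paired fit called 1 lower, Mpo (-1.74, with adjusted p-values of 0.0825 unpaired and 0.032 paired). Of these 11 differences 8 were negative and 3 positive (median -0.53). Macrophage markers (12) ran from 10.35 to 10.74, 10.5 to 10.93 and 9.83 to 10.81, and eosinophil markers (6) from 7.11 to 7.67, 7.02 to 7.72 and 7.04 to 7.41. Between knockdown and wild-type LPS cells limma and the paired fit called 0 in either list. Of the 12 macrophage differences there, 8 were negative and 4 positive (median -0.18). Against unstimulated wild-type cells limma called 1 macrophage marker lower, Csf1r (-0.64, adjusted p = 0.0207), and 1 higher, Cd14 (1.86, adjusted p = 0.0151). The part of these markers in the differences of Ccr4, Ccl17 and Ccl22 was not tested.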

How the data were processed

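The 9 Affymetrix arrays, 3 per group, measured total RNA. The deposited log2 values were made by the authors with RMA per the submitters' processing notes, with no version given, and array medians lay between 7.217 and 7.315. They were not normalized further. No read depth applies, and the number of arrays limits the precision. Of 35556 probe sets, 21789 named a single gene in the platform's table, 1621 several and 12146 none. Symbols were updated through Entrez identifiers (21698 matched) in the RefSeq table of assembly GRCm38.p6, and 1 probe set per gene, the one with the highest mean, was kept, which gave 19938 genes. Promoter sequences are those of RefSeq for build GRCm38.p6, and all 3 genes matched by symbol.

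limma 3.58.1 in R 4.3.3 fitted a mean per group with 6 residual and 2.31 prior degrees of freedom. Tests are two-sided. The fit was tested on simulated data. Per the labels the replicates are biological, but no label says whether they came from separate cultures or animals, so p-values measure the spread between these samples. Deviations from group means, correlated over genes, gave 0.14 to 0.48 for the 9 same-numbered pairs and -0.41 to 0.25 for all others. The main fit holds no block, because no label says that a number marks a shared culture, and so its p-values take no account of pairing. Only the paired fit, which adds the number as a block, and the differences by replicate number treat the numbers as pairs.

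The members and lists were chosen with earlier results of these data known. Genes are named by rule: the members and Kdm4d, the 8 genes most like each member, the called members of each list (at most 6 by p-value, or the 2 with the smallest p where none was called), and 4 neighbours on each side. The single markers of cell types, Ccl7 and the values of Ccl4 by array fall outside the rule and were chosen after their values were seen. Probe sets naming several genes or none were left out.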

Additional observations from a re-analysis of the deposited data

How the results depend on the processing

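Results were recomputed under 7 planned settings, with each of the 9 arrays left out in turn, and, chosen after the data were seen, without the 3 arrays numbered 2. The 9 differences of Ccr4, Ccl17 and Ccl22 kept their sign in all 153 recomputed values. With only the 2 groups compared in the fit, Ccl22 after LPS in wild-type cells was called at an unchanged 1.88. Single arrays left out gave 1.49 to 2.16 for that difference, and 2.23 came without the arrays numbered 2. They gave -3.98 to -2.38 for Ccl22 between knockdown and wild-type LPS cells. Between LPS-treated knockdown and unstimulated wild-type cells they gave -1.16 to -0.57 for Ccr4 (-0.42 without the arrays numbered 2), -1.15 to -0.28 for Ccl17 (-0.35) and -2.1 to -0.5 for Ccl22 (-0.21). Calls gained in these comparisons without 1 array were those without knockdown replicate 1.

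Over all genes, the calls between knockdown and wild-type LPS cells were 301 higher and 247 lower in the paired fit with its replicate block, 14 and 19 with only those groups in the fit, 111 lower after a repeated quantile normalization, and 427 and 241 without the arrays numbered 2. Single arrays left out gave 11 to 257 higher and 7 to 126 lower. After LPS in wild-type cells they gave 393 to 1246 higher and 475 to 2178 lower, and 1757 and 3152 came without the arrays numbered 2. Between LPS-treated knockdown and unstimulated wild-type cells the values were 433 to 1005 and 601 to 1597, and 1313 and 2490. Of the other genes named, Irf4 after LPS changed sign with quantile normalization (0.02) and with arrays left out (-0.46 to 0.35). Their other recomputed values kept sign and call in 1861 cases, lost the call in 216 and gained it in 50. The causes of these changes were not tested.

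Likeness to a member depended on its measure: ranking by Spearman correlation kept 1 of the 8 genes for Ccr4, 0 for Ccl17 and 4 for Ccl22, and ranking within replicate numbers kept 7, 3 and 4. A minimum SD of 0.25 kept 5, 2 and 5. The arrays' signal over background was not analysed here, so whether low values such as those of Cd3g lie above it is unknown.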
